A study of Mus musculus with 12 samples.

Results

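The genes described here are 4 ligands of the bone morphogenetic protein (BMP) family, Bmp4, Bmp5, Bmp6 and Bmp7, and 6 genes that BMP signalling is known to induce, Id1, Id2, Id3, Id4, Msx1 and Bambi. They were chosen by name, as genes with a probe set of their own on the array, with earlier results of these data known. All 10 were found among 19938 genes with such a probe set. Each had 1 probe set. RNA of newborn mouse forebrain (postnatal day 0) was measured on 12 Affymetrix arrays, in 4 genotypes with 3 biological replicates each. Whether a replicate was 1 mouse or a pool is not stated in the labels. GBS mice (hGFAP-cre::Ctnnb1(ex3)Fl/+SmoM2Fl/+) carried both floxed alleles and a Cre recombinase under the human GFAP promoter, whose activity in the embryonic brain begins in radial glia. SmoM2 is a Smoothened that signals without a ligand, and Cre removes exon 3 of Ctnnb1 to leave a beta-catenin that escapes degradation. GS mice (hGFAP-cre::SmoM2Fl/+) carried Cre and the SmoM2 allele, and GB mice (hGFAP-cre::Ctnnb1(ex3)Fl/+) carried Cre and the beta-catenin allele. Control mice (Ctnnb1(ex3)Fl/+SmoM2Fl/+) carried both floxed alleles without Cre. An effect of Cre itself therefore cannot be told apart from that of an allele in any comparison with Control, and the 3 comparisons with Control share its arrays. The GBS arrays hold tumor tissue, per the labels, and the other arrays hold forebrain. The series presents the double mutant as a model of ETMR, an embryonal brain tumor of infants.

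BMPs are secreted dimers that bind a pair of type I and type II serine/threonine kinase receptors. The type I receptor phosphorylates SMAD1, SMAD5 and SMAD9, which enter the nucleus with SMAD4 and switch on target genes, the Id genes among the most direct. Id proteins lack a DNA-binding region and hold basic helix-loop-helix transcription factors, including those that drive neuronal differentiation, in inactive pairs. In the embryonic forebrain BMPs are made at the dorsal midline, by the cortical hem and choroid plexus, and by the meninges.

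RMA values are log2 signals, so a difference of 1 is a 2-fold difference, and levels of different genes are not compared. Array medians ran from 6.52 to 6.69. A gene was tested where its value lay above the 40th percentile of the array in at least 3 arrays, which 14195 genes did, and it was called where limma's Benjamini-Hochberg adjusted p over those genes was under 0.05. Of the 10 genes 9 were tested, and Bmp5 lay below the filter. Id3 passed it in 5 arrays, 2 of them outside GBS, so it entered the test only through the group in which it was high. The forebrain markers Dlx1, Dlx2, Emx1 and Emx2 (named after their values were seen) passed the filter. Ttr, the choroid plexus transport protein (a marker named after its values were seen), read 9.92 and 9.49 in GS arrays 1 and 2, 10.21 in GB array 3 and 9.96 in Control array 3, and 5.63 to 6.39 in all other arrays. Xist, which is transcribed only where an X chromosome is silenced, read 8.66 to 10.83 in arrays 2 and 3 of GS and of GB, and at most 5.02 elsewhere, so GBS and Control matched in sex and the single-allele groups did not match them. In whole tissue, fewer cells of a type and less RNA per cell cannot be told apart.

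Promoters of 7 of the 10 genes were found in RefSeq's GRCm38.p6 table, each running from 250 bases before to 50 after the start of the gene. Those of Bmp7, Id1 and Bambi were not in it. The promoters of the 2 called genes that have an entry, Bmp4 and Id3, are shown 5′ to 3′ on the gene's own strand, since the genes moved in the same direction in the tumors, and capitals mark matches to the motifs searched.
Bmp4 (chr14:46390620-46390919, minus strand): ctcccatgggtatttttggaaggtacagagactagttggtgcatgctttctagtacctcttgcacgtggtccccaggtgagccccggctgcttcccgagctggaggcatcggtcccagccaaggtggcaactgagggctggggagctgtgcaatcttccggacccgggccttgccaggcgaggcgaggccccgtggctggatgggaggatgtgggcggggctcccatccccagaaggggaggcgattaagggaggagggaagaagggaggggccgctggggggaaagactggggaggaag
Id3 (chr4:136143572-136143871, plus strand): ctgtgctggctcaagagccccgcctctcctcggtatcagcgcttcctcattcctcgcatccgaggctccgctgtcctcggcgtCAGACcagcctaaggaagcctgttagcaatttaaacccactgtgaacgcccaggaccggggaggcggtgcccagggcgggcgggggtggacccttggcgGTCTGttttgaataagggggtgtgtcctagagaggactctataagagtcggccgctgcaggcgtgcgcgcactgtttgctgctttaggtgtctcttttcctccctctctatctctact

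The motifs were CTTTGAT for the TCF/LEF partners of beta-catenin, CCACCCA for the core bound by GLI factors, and GGCGCC and CAGAC for SMADs, each sought on both strands (GGCGCC reads the same on both). The Bmp4 window held none of the 4. The Id3 window held CAGAC at position -167 from the start and its reverse complement, GTCTG, at position -68. CAGAC is common, with a match in 49.6% of all 32851 promoters in the table, and it was also found at Bmp5 and Bmp6. GGCGCC was found at Id2 and Id4 and in 11.9% of all promoters. CCACCCA was found at Bmp5 and in 9.3% of all, and CTTTGAT at 0 of the 7 and in 3.7% of all. A match here is a description of the letters, and these windows leave out any more distant element.

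Bmp4 was the ligand that rose most clearly in the tumors. BMP4 patterns the dorsal midline of the forebrain and is a strong inducer of the Id genes. It read 8.14, 8.88 and 8.55 in GBS arrays 1 to 3, 6.95, 6.84 and 6.87 in GS, 6.91, 7.18 and 6.98 in GB, and 6.80, 6.77 and 7.01 in Control. Every GBS array lay above all 9 other arrays, and the other 3 groups overlapped each other. The mean was 8.52 ± 0.372 in GBS and 6.86 ± 0.133 in Control (SD, n = 3 each), a log2 change of 1.66 ± 0.163 (SE) or 3.16-fold (adjusted p = 0.00017), which ranked 128 of the 14195 genes from the top. Bmp4 was likewise higher in GBS than in GS, by 1.64 ± 0.163 (adjusted p = 0.000287), and than in GB, by 1.5 ± 0.163 (adjusted p = 0.000639).

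Neither allele alone moved Bmp4 past the test. The change was 0.02 in GS against Control (95% interval -0.33 to 0.38, adjusted p = 0.943) and 0.16 in GB against Control (-0.20 to 0.52, adjusted p = 1.0). From high to low the order of means was GBS, GB, GS and Control, and only the first pair of neighbours differed. The sum of both single-allele changes would place GBS at 7.05, 1.48 below the measured mean. The interaction term, (GBS minus GS) minus (GB minus Control), was 1.48 ± 0.23 (adjusted p = 0.0261), beside 0.324% of all tested genes with a positive interaction past the test. That call ended without GBS array 3, GB array 1 or 3, or any one GS or Control array (1.40 to 1.53, adjusted p = 0.057 to 0.0983) and with sex as a covariate (1.53, adjusted p = 0.619). The comparisons of GBS with the other 3 groups kept their calls in all 26 other settings tried, with a log2 change of 1.48 to 1.85 against Control, 1.46 to 1.83 against GS and 1.32 to 1.69 against GB.

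**Figure D1:**
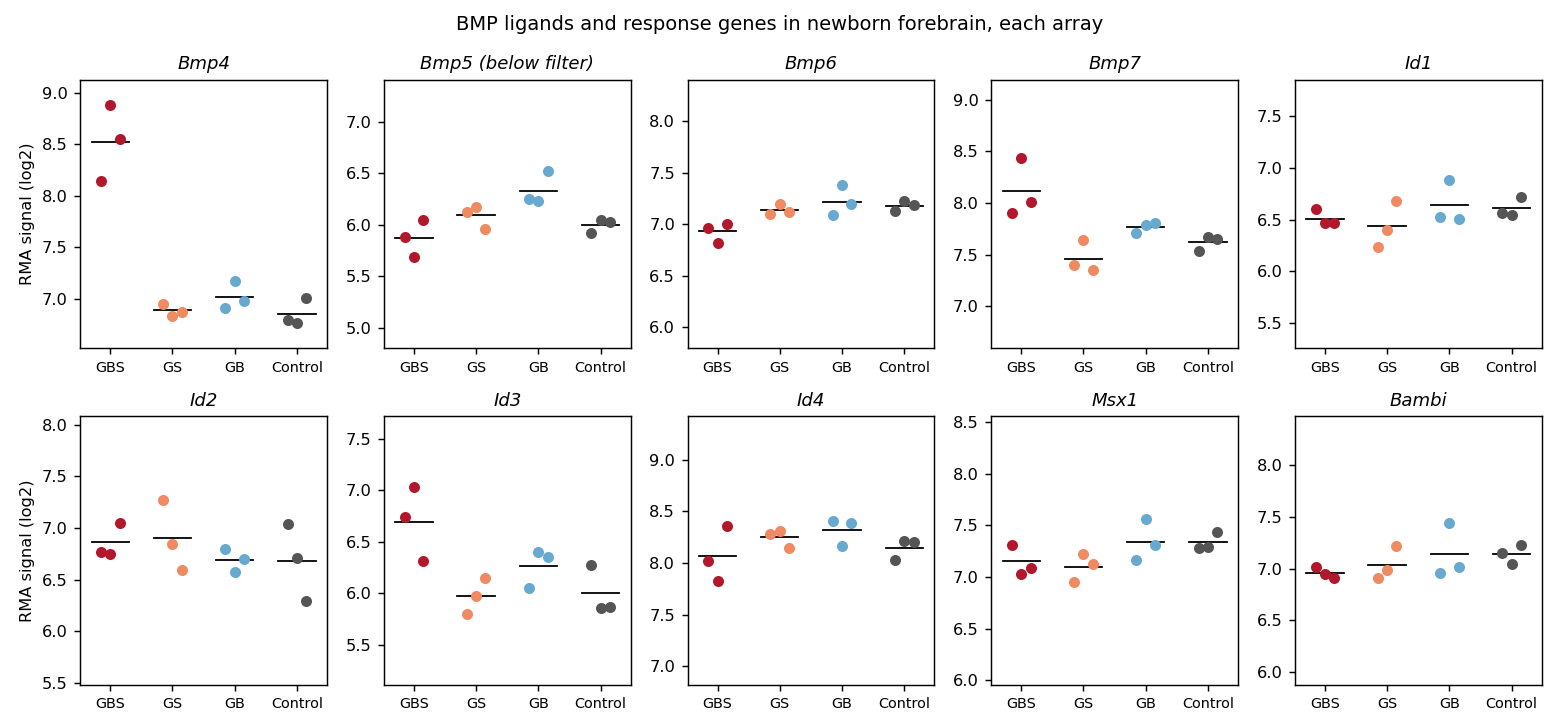
RMA signal (log2) of the 4 BMP ligands and 6 response genes in each array, with GBS, GS, GB and Control from left to right, each point 1 array and each line a group mean. Every panel spans the same log2 range around its own centre. The 3 GBS points of Bmp4 (8.14 to 8.88) lie above all other arrays (6.77 to 7.18), while Id1, Id2, Id4, Msx1 and Bambi overlap between most groups.

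Bmp7, a ligand of the BMP5/6/7 subgroup that is made by the meninges and dorsal midline, rose by less. It read 7.90, 8.44 and 8.01 in GBS, 7.40, 7.64 and 7.35 in GS, 7.71, 7.79 and 7.81 in GB, and 7.54, 7.67 and 7.65 in Control. The lowest GBS array lay above the highest array of each other group. Against Control the log2 change was 0.50 ± 0.136 (1.41-fold, adjusted p = 0.0337), and against GS it was 0.65 ± 0.136 (1.57-fold, adjusted p = 0.0196). Against GB it was 0.35 ± 0.136 and did not pass (adjusted p = 0.0907). The call against Control ended without GBS array 2 or 3 or any one Control array (0.34 to 0.55, adjusted p = 0.0524 to 0.116), after quantile normalization (0.34, adjusted p = 0.0823) and when the level of receptor genes (see Bmp6) was made a covariate (0.41, adjusted p = 0.163). The call against GS ended without GS array 1 or 3 (0.60 to 0.62, adjusted p = 0.0555 to 0.077), with only these groups in the fit (0.65, adjusted p = 0.0599) and with sex as a covariate (0.72, adjusted p = 0.0759). In the single-allele groups Bmp7 changed by -0.16 in GS and by 0.15 in GB against Control, and neither passed (adjusted p = 0.655 and 1.0).

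Bmp6, of the same subgroup, showed a small difference in the tumors that did not pass the test. It read 6.96, 6.82 and 7.0 in GBS, 7.10, 7.20 and 7.12 in GS, 7.09, 7.38 and 7.20 in GB, and 7.13, 7.23 and 7.19 in Control. All GBS arrays lay below all others, with a log2 change against Control of -0.26 ± 0.094 (adjusted p = 0.0834) and against GB of -0.30 ± 0.094 (adjusted p = 0.0594). The first passed without GB array 2 (-0.26, adjusted p = 0.028) and without GB array 2, GS array 3 and Control array 3 together, which differ from their groups in a similar way (-0.25, adjusted p = 0.0433). It also passed with only GBS and Control in the fit (-0.26, adjusted p = 0.0422) and with array weights (-0.20, adjusted p = 0.0273), and the second passed without GB array 1 (-0.36, adjusted p = 0.049). The 205 olfactory and vomeronasal receptor genes that passed the filter had a median change of -0.37 in GBS against Control. The median of all tested genes was -0.10. How much of these signals is background was not measured, and its part in the Bmp6 difference was not tested. The array medians of all 1178 receptor genes were 4.84 to 4.92 in GBS, 4.88 to 5.23 in GS, 5.02 to 5.35 in GB and 5.12 to 5.23 in Control. With that level as a covariate the Bmp6 change against Control was -0.16 (adjusted p = 0.42). Every GBS array had a lower level than every Control array. Fits with this covariate, for Bmp6 and for all other genes, therefore cannot fully tell the level apart from genotype.

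Bmp5, the third ligand of that subgroup, exceeded the 40th percentile in 1 array and was not tested. It read 5.88, 5.69 and 6.05 in GBS, 6.12, 6.17 and 5.96 in GS, 6.25, 6.23 and 6.52 in GB, and 5.92, 6.05 and 6.03 in Control. The GB arrays were above all others, and the GBS arrays had the lowest mean (5.87 ± 0.181 in GBS and 6.33 ± 0.161 in GB, SD, n = 3 each). With no filter on dim genes, over 19938 genes, the log2 change of GBS against GB was -0.46 ± 0.116 (adjusted p = 0.0346), and that of GB against Control 0.34 ± 0.116 (adjusted p = 1.0). The highest Bmp5 value was that of GB array 3, 1 of the 4 arrays with high Ttr.

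The response genes did not move together. Id3, 1 of the Id genes that BMP-activated SMADs induce directly, was the only response gene called, in GBS against Control. It read 6.74, 7.03 and 6.31 in GBS, 5.80, 5.98 and 6.15 in GS, 6.05, 6.40 and 6.35 in GB, and 6.28, 5.86 and 5.87 in Control. GBS did not overlap with GS or Control, but it overlapped with GB, where 2 arrays exceeded the lowest GBS array. The log2 change against Control was 0.69 ± 0.189 (1.61-fold, adjusted p = 0.0342). Against GS it was 0.72 ± 0.189 (adjusted p = 0.056) and against GB 0.43 ± 0.189 (adjusted p = 0.114), and neither passed.

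The Id3 call against Control was lost when 1 of 5 arrays was left out. It ended without GBS array 1 or 2, GS array 2, or Control array 2 or 3 (0.52 to 0.69, adjusted p = 0.0516 to 0.152). Against GS, Id3 passed in 7 of 25 other settings, among them those without GBS array 3 or GB array 2 (0.72 to 0.91, adjusted p = 0.0195 to 0.0284). It changed by -0.03 in GS and by 0.26 in GB against Control, neither past the test (adjusted p = 0.948 and 1.0).

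Id1, the Id gene often used as a read-out of BMP signalling, changed by -0.10 ± 0.134 in GBS against Control (95% interval -0.39 to 0.20, adjusted p = 0.57). With the receptor-gene level as a covariate the change was 0.26 ± 0.0824 (adjusted p = 0.0615). It read 6.60, 6.47 and 6.47 in GBS, 6.23, 6.40 and 6.68 in GS, 6.53, 6.88 and 6.51 in GB, and 6.56, 6.54 and 6.72 in Control, and the groups overlapped. Between GBS and GS Id1 was called in 1 of 25 other settings, the fit with the receptor-gene level as a covariate (adjusted p = 0.0261). Id2, which is also expressed by cortical projection neurons, read 6.77, 6.75 and 7.05 in GBS, 7.27, 6.84 and 6.59 in GS, 6.80, 6.57 and 6.70 in GB, and 7.04, 6.71 and 6.29 in Control. Its spread within GS and Control (SD 0.343 and 0.376, n = 3 each) exceeded its change in GBS against Control, 0.18 ± 0.203 (-0.27 to 0.63, adjusted p = 0.479). Id4, an Id gene of neural progenitors, read 8.02, 7.83 and 8.36 in GBS, 8.28, 8.31 and 8.15 in GS, 8.41, 8.16 and 8.39 in GB, and 8.03, 8.21 and 8.20 in Control. Its change in GBS against Control was -0.08 ± 0.134 (-0.37 to 0.22, adjusted p = 0.653). On the fit without covariates, the intervals of these 3 genes leave out a rise of the size of Bmp4's, and include a change of the size of the one in Bmp6.

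Msx1 and Bambi are targets of another kind, a homeobox factor of the dorsal midline and a decoy receptor that dampens BMP signalling. Msx1 read 7.31, 7.03 and 7.09 in GBS, 6.95, 7.22 and 7.13 in GS, 7.16, 7.56 and 7.31 in GB, and 7.28, 7.29 and 7.44 in Control. Bambi read 7.02, 6.95 and 6.91 in GBS, 6.91, 6.99 and 7.22 in GS, 6.96, 7.44 and 7.02 in GB, and 7.15, 7.05 and 7.23 in Control. The change in GBS against Control was -0.19 ± 0.124 for Msx1 (adjusted p = 0.241) and -0.18 ± 0.131 for Bambi (adjusted p = 0.281), and neither passed. GB array 2, which also had the highest receptor-gene level (5.35), held the highest value of Msx1, Bambi, Bmp6 and Id1. With the receptor-gene level as a covariate these changes were 0.02 for Msx1 and 0.15 for Bambi (adjusted p = 0.957 and 0.341).

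Counted together, 3 of the 9 tested genes were higher and 0 lower in GBS than in Control, beside 11.0% of all 14195 genes higher and 4.35% lower. The count includes Id3 and so leans on a gene that passed the filter through GBS. The arrays of GBS lay wholly above Control for 3 genes (Bmp4, Bmp7 and Id3) and wholly below for 2 (Bmp6 and Bambi), beside 28.8% and 35.7% of all tested genes. The median change of the 9 was -0.08, close to the -0.10 of all tested genes. With GBS set against GS, 2 of 9 were higher and 0 lower, beside 3.56% and 1.51% of all genes, and the arrays lay wholly above for 3 and wholly below for 1, beside 16.5% and 12.4%. With GBS set against GB, 1 of 9 was higher and 0 lower, beside 9.60% and 3.12%, and the arrays lay wholly above for 2 and wholly below for 1, beside 24.2% and 23.7%. For the interaction, 1 of 9 was positive and 0 negative, beside 0.324% and 0.00704%. In GS and in GB against Control limma called 0 of 9, and 0 had an unadjusted p under 0.05. Over all genes 0.0211% were called higher and 0% lower in GS against Control, and 0% in either direction in GB against Control. GS lay wholly above Control for 0 of 9 genes and wholly below for 1 (Msx1), beside 8.09% and 9.43% of all genes. GB lay wholly above Control for 1 (Bmp7) and wholly below for 0, beside 3.01% and 1.09%. Between GS and GB 0 of 9 were called (1 at an unadjusted p under 0.05, Bmp7), beside 0.00704% of all genes in each direction, and GS lay wholly above GB for 0 and wholly below for 1 (Bmp7), beside 4.45% and 5.11%.

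**Figure D2:**
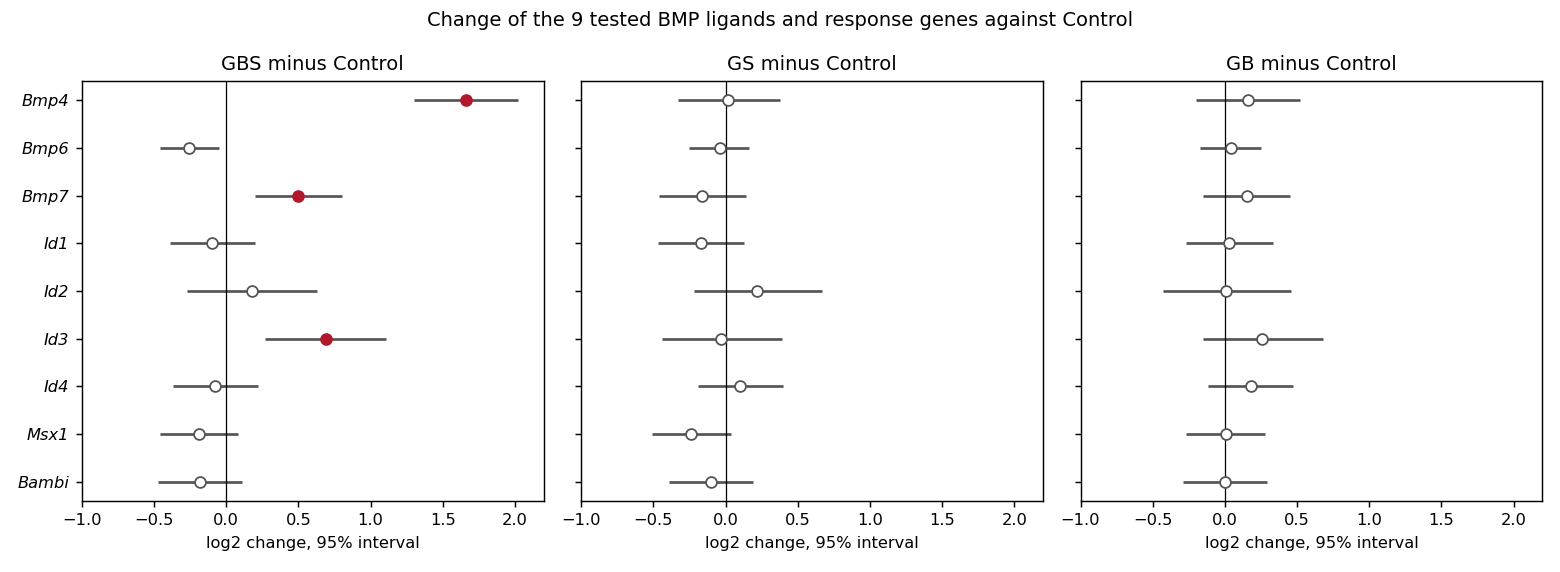
Log2 change of the 9 tested genes in GBS, GS and GB against Control (panels from left to right), with 95% intervals from the fit, filled where the adjusted p is under 0.05. Bmp4 (1.66), Id3 (0.69) and Bmp7 (0.50) are filled in the GBS panel, and none is filled in the GS and GB panels, which share the Control arrays with it.

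**Figure D3:**
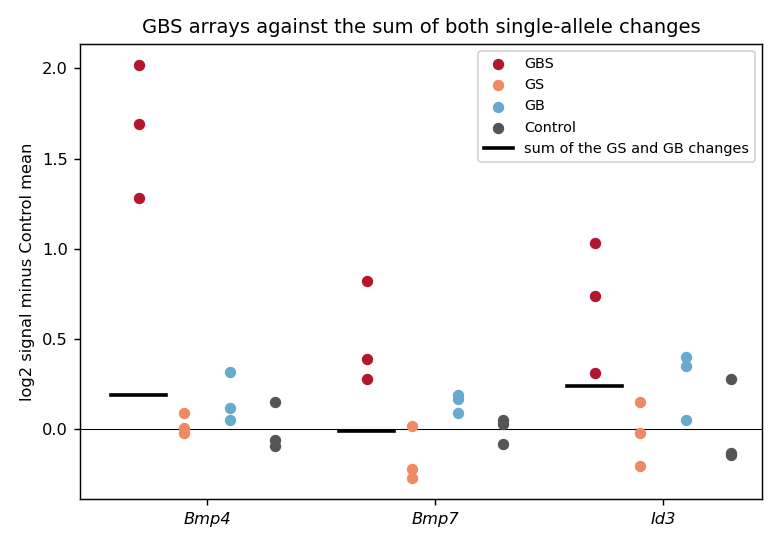
Log2 signal minus the Control mean of Bmp4, Bmp7 and Id3 in each array of GBS, GS, GB and Control, with a black bar where GBS would lie if the GS and GB changes added up. The GBS arrays of Bmp4 lie above the bar by a mean of 1.48, those of Bmp7 by 0.50 and those of Id3 by 0.45, of which limma called the first (adjusted p = 0.0261, 0.504 and 0.735).

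The other genes of the pathway were read from a list of 57, of which 54 had a probe set of their own and 51 were tested. In GBS against Control 13 rose (25.5%, beside 11.0% of all genes) and 1 fell (2.0%, beside 4.35%). That split changed with the fit. Without GB array 2, and also with only GBS and Control in the fit, 15 were higher and 8 lower. Without GB array 2, GS array 3 and Control array 3 together, 16 were higher and 9 lower. Array weights gave 16 higher and 15 lower. Calls over all genes moved too, from 1556 higher and 617 lower to 709 to 6133 in all without single arrays. Over the other settings they were 513 to 7737. These other counts are therefore not read as a result about the pathway. The median of the 51 was -0.15, beside -0.10 for all genes, and 37 of the 51 were not called. In GS and in GB against Control 0 of 51 were called. Against GS 7 were higher and 1 lower (Dlx5) in GBS (13.7% and 2.0%, beside 3.56% and 1.51% of all genes), and against GB 9 were higher and 0 lower (17.6%, beside 9.60% of all genes).

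Among 7 further tested ligands Bmp2 alone was called, beside 11.0% of all genes higher and 4.35% lower in GBS than in Control. BMP2 is the closest relative of BMP4. It read 6.61, 7.46 and 7.06 in GBS, 5.51, 5.85 and 5.55 in GS, 7.19, 5.95 and 6.70 in GB, and 5.88, 5.52 and 5.75 in Control. GBS lay above GS and Control and overlapped with GB, in which arrays 1 and 3 exceeded the lowest GBS array. The log2 change was 1.33 ± 0.287 against Control (adjusted p = 0.0135) and 1.41 ± 0.287 against GS (adjusted p = 0.0183). The change of GB against Control was 0.90 and did not pass (adjusted p = 1.0). The call against Control ended without GBS array 2 or Control array 2 (1.12 to 1.23, adjusted p = 0.0524 to 0.0701) and with the receptor-gene level as a covariate (0.86, adjusted p = 0.124), and that against GS without GBS array 2 or GS array 1 or 2 (1.20 to 1.51, adjusted p = 0.0505 to 0.0925) and with sex as a covariate (adjusted p = 0.146). Like Id3, Bmp2 passed the filter in 5 arrays, 2 of them outside GBS.

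Of 10 tested receptor genes 1 was called higher in GBS against Control, near the 11.0% of all genes. Bmpr1a, the main type I receptor of BMP2 and BMP4, read 8.55, 9.09 and 8.76 in GBS, 8.24, 7.98 and 7.16 in GS, 7.42, 5.70 and 7.92 in GB, and 7.22, 7.53 and 6.72 in Control. It rose by 1.64 ± 0.489 against Control (adjusted p = 0.045), and that call ended when 1 of 9 arrays was left out (any GBS or Control array, GS array 1 or 2, or GB array 1; adjusted p = 0.0538 to 0.174). With the receptor-gene level as a covariate the change was 0.22 (adjusted p = 0.635).

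Of 6 tested SMAD genes 3 rose in GBS against Control, beside 11.0% of all genes: Smad5, Smad4 and Smad1. Smad5, a SMAD phosphorylated by BMP receptors, read 8.67, 8.88 and 8.87 in GBS, 8.21, 8.15 and 7.90 in GS, 8.27, 7.48 and 8.30 in GB, and 7.79, 7.86 and 7.50 in Control. Its change against Control was 1.09 ± 0.2 (adjusted p = 0.00618) and passed in all 26 other settings, with 0.57 (adjusted p = 0.0234) when the receptor-gene level was a covariate. Smad4, the shared partner, rose by 0.87 ± 0.208 (adjusted p = 0.0203), and Smad1, which BMP receptors also phosphorylate, by 0.47 ± 0.118 (adjusted p = 0.0255). Smad4 was not called without GBS array 2 or 3 or Control array 1 or 3 (0.75 to 0.90), and Smad1 was not called without GBS array 2 or 3 or any one Control array (0.37 to 0.47). With the receptor-gene level as a covariate Smad4 changed by 0.40 and Smad1 by 0.28 (adjusted p = 0.212 and 0.203). Smad9, also a SMAD of the BMP receptors, and the inhibitory Smad6 and Smad7 were not called.

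Secreted inhibitors and modulators held the largest changes of the pathway, with 5 of 14 tested genes higher and 0 lower in GBS than in Control. Over all genes 11.0% were higher and 4.35% lower. The median change of the 14 was -0.1. GBS lay wholly above Control for 5 of the 14 and wholly below for 6, beside 28.8% and 35.7% of all genes. Fst encodes follistatin, which binds activins and, more weakly, BMPs. It read 8.84, 9.52 and 9.07 in GBS, 7.20, 6.93 and 7.20 in GS, 7.17, 7.23 and 7.15 in GB, and 7.28, 7.12 and 6.96 in Control, so that all GBS arrays lay far above the other 9. The change was 2.02 ± 0.159 against Control (adjusted p = 4.2e-05), 2.03 against GS and 1.96 against GB.

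Sostdc1 encodes a secreted antagonist of BMP and WNT signalling. It read 8.47, 9.28 and 9.33 in GBS, 6.58, 6.75 and 6.53 in GS, 7.45, 7.05 and 7.51 in GB, and 6.83, 6.79 and 7.06 in Control. Its change against Control was 2.14 ± 0.212 (adjusted p = 0.000189). Tll1 encodes a protease of the tolloid family, which cleaves the BMP inhibitor chordin and so releases BMPs. It read 7.92, 8.07 and 8.36 in GBS, 6.00, 6.08 and 6.12 in GS, 6.33, 6.39 and 6.34 in GB, and 5.99, 5.94 and 6.37 in Control. Its change against Control was 2.02 ± 0.134 (adjusted p = 1.7e-05). Fst, Sostdc1 and Tll1 kept their calls against Control in all 26 other settings.

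Twsg1, which encodes an extracellular modulator that binds BMPs together with chordin, rose by 0.66 ± 0.114 against Control (adjusted p = 0.00471), and that call ended in 1 of 26 other settings, the one that asks for a 2-fold change, while the receptor-gene level as a covariate left a change of 0.40 (adjusted p = 0.0182). The fifth was Fstl1, a follistatin-like gene outside the naming rule (0.55 ± 0.121, adjusted p = 0.0146). Its call ended without GBS array 2 or Control array 1 or 3 (0.48 to 0.55, adjusted p = 0.0556 to 0.0711) and with that covariate (0.30, adjusted p = 0.115). Nog and Chrd, the genes of the BMP traps noggin and chordin (named after their values were seen), were not called in any comparison. Nog read 6.22, 6.02 and 6.35 in GBS, against 6.44, 6.18 and 6.39 in Control.

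**Figure D4:**
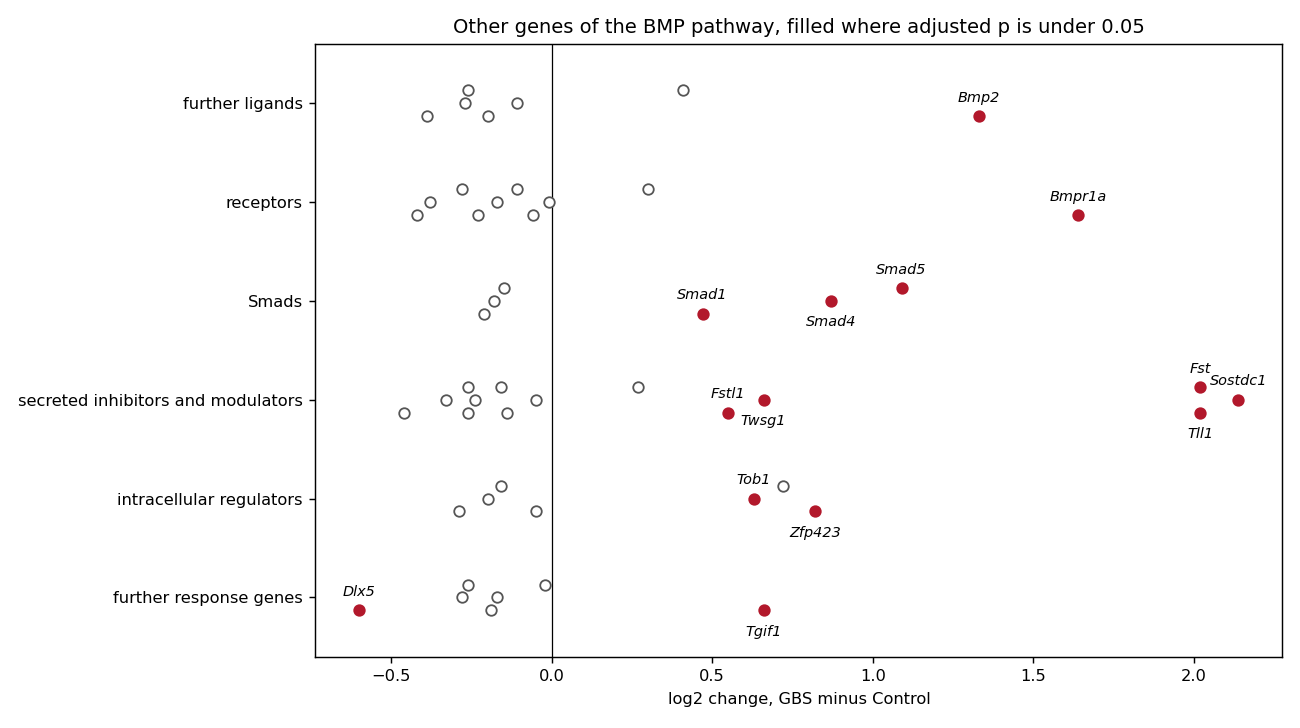
Log2 change in GBS against Control of 51 further genes of the BMP pathway, in rows by role, filled where the adjusted p is under 0.05. The 13 filled points to the right reach 2.14 (Sostdc1), the 1 filled point to the left is Dlx5 (-0.60), and open points lie mostly between -0.5 and 0.

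Of 7 intracellular regulators 2 rose in GBS against Control, beside 11.0% of all genes. Zfp423, a zinc finger partner of the BMP-activated SMADs, read 8.31, 8.77 and 8.25 in GBS, against 7.61, 7.52 and 7.72 in Control, a change of 0.82 ± 0.129 (adjusted p = 0.00274). Tob1, which encodes a protein that restrains SMAD signalling and cell division, rose by 0.63 ± 0.161 (adjusted p = 0.0275). Leaving out GBS array 2 or Control array 2 or 3 ended the Tob1 call (0.47 to 0.58), as did the receptor-gene level as a covariate (0.33, adjusted p = 0.262).

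Of 7 further tested response genes 1 rose and 1 fell in GBS against Control, beside 11.0% and 4.35% of all genes. Tgif1, which encodes a homeobox repressor that binds SMADs of the TGF-beta branch, rose by 0.66 ± 0.16 (adjusted p = 0.0221). Dlx5, a homeobox gene that BMPs induce in bone and that interneuron precursors express in the forebrain, read 7.43, 6.94 and 7.53 in GBS, against 7.85, 8.18 and 7.68 in Control, a change of -0.60 ± 0.176 (adjusted p = 0.0428). Leaving out GBS array 2 or 3 or Control array 1 or 2 ended the Tgif1 call (0.52 to 0.67, adjusted p up to 0.103). Leaving out 1 of 8 arrays (GBS array 1 or 2, GS array 1 or 2, GB array 1 or any Control array) ended the Dlx5 call (-0.72 to -0.42, adjusted p up to 0.177). Dlx1 and Dlx2, which interneuron precursors also express, changed by -0.54 and -0.50 (adjusted p = 0.0459 and 0.0535). All GBS arrays lay below Control for both, as they did for 35.7% of all genes. The part of interneuron precursors in the Dlx5 value was not tested. With the receptor-gene level as a covariate Dlx5, Dlx1 and Dlx2 changed by -0.71, -0.36 and -0.17 (adjusted p = 0.0676, 0.304 and 0.553). The Dlx1 call ended when 1 of 8 arrays was left out (-0.57 to -0.39, adjusted p = 0.0569 to 0.191). Dlx1 was called in 11 of 26 other settings and Dlx2 in 8 of 25. Hey1, Hes1, Atoh8, Klf4 and Gata2 were not called. Msx2 lay below the filter, and Lmx1a and Runx2 had no probe set of their own.

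Markers of the cell types that make BMPs were read as lists. Of 7 tested cortical hem markers 2 were higher and 1 lower in GBS than in Control, beside 11.0% and 4.35% of all genes, with Wnt5a at 1.5, Rspo3 at 0.73 and Rspo2 at -0.50 (adjusted p = 0.000755, 0.0358 and 0.0111). Wnt5a passed the filter in 5 arrays, 2 of them outside GBS, and so was tested only through the group in which it was high. The Rspo3 call ended without GBS array 2 or 3, GS array 2 or any one Control array (0.57 to 0.77, adjusted p = 0.0541 to 0.161), and was 0.24 (adjusted p = 0.425) with the receptor-gene level as a covariate. The Rspo2 call ended without GBS array 2 or Control array 3 (-0.46 to -0.45, adjusted p = 0.0544 to 0.057). Wnt2b, Wnt3a and Wnt8b were not called. These 3, Rspo3, and the collagens, Foxc1 and Lum below were named after their values were seen. The summed signal of 7 hem markers was 815 to 1005 in GBS, against 747 to 814 in Control, on the unlogged scale. These ranges do not overlap but nearly meet, at 815 and 814. The sum includes Wnt5a, at 7.28 to 8.07 (log2) in GBS and 5.96 to 6.19 in Control, and was not taken without it. The median change of the 7 markers was -0.2. GBS lay wholly above Control for 2 of them and wholly below for 4, beside 28.8% and 35.7% of all genes. Of 6 tested choroid plexus markers 1 was higher, Clic6 (2.38, adjusted p = 0.000326), which passed the filter in 4 arrays, 1 of them outside GBS, and so only through GBS, while the sum over 8 was 739 to 1086 in GBS, against 662 to 1693 in Control.

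Of 6 tested meningeal and fibroblast markers 1 was higher, the proteoglycan gene Dcn (3.79, adjusted p = 0.000354). Col1a1, Col1a2 and Col3a1 changed by -0.19, -0.23 and -0.24 and were not called, and Foxc1 and Lum were below the filter in all 12 arrays. The sum over 9 meningeal genes, most of it Dcn in the tumors, was 2522 to 2647 in GBS, against 1180 to 1338 in Control, with no overlap. It was not taken without Dcn, and so does not show a rise of the other meningeal genes. The median change of the 6 tested markers was -0.24. GBS lay wholly above Control for 1 of them and wholly below for 3, beside 28.8% and 35.7% of all genes. Of 8 tested endothelial and pericyte markers, cells in which Id1 and Id3 are well expressed, 0 were called, and the sum over 9 was 1046 to 1051 in GBS, against 964 to 1068 in Control. Of 4 tested markers of dividing cells 4 were higher. Bub1, 1 of the 4 (named after its values were seen), passed the filter in 5 arrays, 2 of them outside GBS, and so only through GBS. Of 7 tested radial glia markers 5 were higher and 1 lower. The lower one was Fabp7 (also named after its values were seen), with a mean of 8.67 in GBS and 10.7 in Control. The sum over 8 radial glia genes was 2937 to 3351 in GBS, against 2680 to 3172 in Control, and these ranges overlapped. Beside each of these lists, 11.0% of all genes were higher and 4.35% lower. The part of these cell types in the Bmp and Id values was not tested.

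The genes most like the 3 called genes over all 12 arrays were found by the root mean square difference of their mean-centred log2 values. For Bmp4, whose own centred profile has a root mean square of 0.717, they were Tmem176b (difference 0.159), Fgd6 (0.16) and Cyp39a1 (0.169). These rose in GBS against Control by 1.60, 1.54 and 1.74, and a rise close to that of Bmp4 follows from how they were picked. For Bmp7 (own 0.279) they were Klf9 (0.0895), Mgp (0.102) and Npl (0.111), of which Mgp was not called in GBS against Control (adjusted p = 0.0994). For Id3 (own 0.354) they were Prelp (0.0991), Acss3 (0.165) and Mtap (0.165), of which Acss3 was not called (adjusted p = 0.0631). Klf9 kept its call in 23 of 26 other settings, Npl in 16 of 25, Prelp in 22 of 26 and Mtap in 20 of 25. Arrays of a genotype share their tissue, so the likeness is mainly that of 4 group means.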

How the data were processed

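The authors' deposited table holds log2 values. The submitters' processing notes name RMA and Affymetrix Expression Console. RMA corrects background, normalizes arrays against each other and summarises probes. The log2 scale was taken from the values, which run from 2.82 to 13.83, and the sources used here give neither software version nor genome build. No control-probe signal was used, so 12 arrays and the floor of dim probe sets limit the precision. No pair of arrays was a copy (smallest median absolute difference 0.102).

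Of 35556 probe sets 21789 had 1 gene symbol, 1621 several (none of them named) and 12146 were not listed. Symbols were updated through RefSeq gene identifiers (GRCm38.p6) for 21698. The probe set with the highest mean stood for a gene. A single limma 3.58.1 model (R 4.3.3) estimated the 4 genotype means from the 12 arrays (lmFit and eBayes, 8 residual and 2.9 prior degrees of freedom, two-sided tests), after a check on simulated data. Genes named beside the 10 are, per role of the wider list, up to 4 called in any pairwise comparison, lowest adjusted p first, the 3 most alike profiles of each called gene, and up to 2 markers per cell type, and the text marks those named beyond this rule. The genes, lists and settings were chosen with earlier results of these data known.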

Additional observations from a re-analysis of the deposited data

Results flagged for a closer look

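Bmp4 had a positive interaction of both alleles, with GBS 1.48 (log2) above the sum of the GS and GB changes (adjusted p = 0.0261). Its GBS arrays, at 8.14 to 8.88, lay above the sum, 7.05, in 3 of 3. Among the other genes of the pathway the same term was 1.97 for Fst (adjusted p = 0.00476), 1.97 for Sostdc1 (adjusted p = 0.0261) and 1.79 for Tll1 (adjusted p = 0.00384). Fst and Tll1 kept that call in 24 of 25 other settings, and Bmp4 and Sostdc1 each in 13 of 25. The exception for Fst and Tll1 was sex as a covariate (adjusted p = 0.208 and 0.16). Bmp4 and Sostdc1 lost their calls there, with the replicate number as a block and at an adjusted p under 0.01. Each also lost its call when 1 of 9 arrays was left out (not the same 9). The highest adjusted p was 0.619 for Bmp4 and 0.673 for Sostdc1.

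Bmp5, below the filter, differed in opposite directions: each GBS array was below the GS mean and each GB array above the Control mean, a difference of changes of -0.55. With no filter that interaction had an adjusted p = 0.368 and was not called.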

How the results depend on the processing

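The 10 genes and the 57 others were refitted under 14 other settings and without each of the 12 arrays in turn. An uncalled change was taken to have no direction. No called change that was refitted turned its sign. Markers, the genes most alike and Fstl1 were refitted for GBS against Control only, and not every marker was refitted. The count of the 10 genes called in GBS against Control was 3, and 1 at an adjusted p under 0.01 or with a 2-fold limit, and 1 to 4 without single arrays. In GBS against GS it was 2, 1 with only the groups compared, at an adjusted p under 0.01, with a 2-fold limit or with sex as a covariate, 4 with array weights or with the receptor-gene level as a covariate, and 1 to 3 without single arrays. In GBS against GB it was 1, 2 with no filter or after quantile normalization, and 1 to 2 without single arrays. The interaction count was 1, 0 at an adjusted p under 0.01 or with sex as a covariate, and 0 to 1 without single arrays. In GS against Control it was 0, and 3 with array weights, which stopped before converging and called 8287 of all genes there. Replicate numbers did not pair the arrays: deviations from the group means correlated at -0.82 to 0.74 over 18 same-numbered pairs, above 0.1 in 7. With the replicate number as a block the interaction count was 0 (Bmp4 1.48, adjusted p = 0.0721), Id3 lost its call in GBS against Control (0.69, adjusted p = 0.069), Bmp2 lost its call in GBS against GS, and the pathway list went to 9, 5 and 3 calls in GBS against Control, GS and GB. That list had 14, 8 and 9 calls in those comparisons on all arrays, 6 to 23, 4 to 17 and 3 to 11 without single arrays, and 25, 16 and 15 without the 3 arrays that deviate together. Over the other settings it had 6 to 31, 3 to 21 and 2 to 15 calls. Over all genes GBS against Control had 1556 higher and 617 lower calls, in all 709 to 6133 without single arrays and 513 to 7737 over the other settings. The cause was not tested. Each of the 10 genes has 1 probe set, so no further probe set could be tried, and the 60th percentile filter leaves out Id1 and Id3. Dim genes such as Bmp5 and Id3 lie near the floor of the array, where a change can be understated.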

Other observations

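Follistatin binds activins as well as BMPs, so 21 genes of the activin and TGF-beta branch were read too (chosen after the values above were seen). Of 19 tested, 2 rose in GBS against Control, near the 11.0% of all genes, and 0 fell, beside 4.35%. The median change of the 19 was -0.24. Ltbp1, which encodes a matrix protein that holds latent TGF-beta, rose by 2.21 ± 0.227 (4.64-fold, adjusted p = 0.000234), and Tgfb2, which encodes a TGF-beta ligand, by 0.91 ± 0.162 (1.88-fold, adjusted p = 0.00538). Both were also higher in GBS than in GS and than in GB, and all GBS arrays lay above those of the other 3 groups. Over all genes GBS lay wholly above Control for 28.8%, above GS for 16.5% and above GB for 24.2%. The activin subunit genes Inhba and Inhbb were not called in any comparison. Limma called 0 of the 19 in GS and in GB against Control, beside 0.0211% of all genes higher in GS and 0% in GB. In GB against Control Ltbp1 changed by 0.80 ± 0.227 and Tgfb2 by 0.10, neither past the test. All GB arrays lay above Control for Ltbp1, while the groups overlapped for Tgfb2. The Tgfb2 calls against GS and GB ended without GBS array 2 (0.70 to 0.76, adjusted p = 0.0617 to 0.0677), and with sex as a covariate the Tgfb2 calls against GS and GB and the Ltbp1 call against GB ended. With only GBS and GB in the fit, the calls of both genes against GB ended. The Tgfb2 call against GB also ended with the receptor-gene level as a covariate.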
